A study of Mus musculus with 35 samples.

Results

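The AP-1 and immediate early genes described here are Fos, Fosb, Jun, Junb, Jund, Egr1, Ier2, Dusp1, Atf3 and Zfp36. They were chosen by name, and all 10 were among the 11982 gene names in the deposited RNA-seq table. RNA was measured in hematopoietic stem and progenitor cells (HSPCs) from bone marrow, in 2 libraries from wild-type (WT) mice and 2 libraries from JMJD1B-/- mice, labelled as biological replicates. Mice of both genotypes had a mixed 129P2xC57BL/6J background. In the JMJD1B-/- mice a gene trap disrupted Kdm3b, the gene of the histone demethylase JMJD1B, throughout the animal and not in HSPCs alone. The study states that male and female mice were used, over a range of ages. Age-matched littermates are stated as the source of HSPCs for its chromatin experiments. Neither the age nor the sex of a single RNA library is labelled. How the HSPCs were sorted is not given in the sources used here. The question addressed was whether loss of JMJD1B changed the RNA level of these genes in HSPCs.

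Immediate early genes are transcribed within minutes of a growth factor, cytokine or stress signal, without new protein synthesis, and their messages are short lived. MAP kinases pass such signals to SRF, its ternary complex partners and CREB, which are already bound near the promoters. The FOS and JUN proteins pair through leucine zippers to form AP-1, which then acts on a second wave of genes. DUSP1, a phosphatase, switches the MAP kinases off again, and ZFP36 (tristetraprolin) binds AU-rich elements and speeds the decay of short-lived messages. In bone marrow these genes respond to cytokines and also to handling of the cells.

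Promoter sequences are shown for the 4 genes that had the same order of libraries (Fos, Jun, Junb and Dusp1) and for Zfp36, which had the lowest p of the 10 genes in the comparison of genotypes. They are the 250 bases upstream of the start in RefSeq, build GRCm38.p6, which is not the mm9 build named for the deposited data. Of the 10 genes, 8 had an entry, all but Egr1 and Ier2. Capitals mark matches on either strand to TGACG, which is the core of a cAMP response element, to TGACNTCA, which takes in the full element and the related site of Jun, and to the CArG box, the motif of SRF.

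Fos (chr12:85473640-85473889, strand +): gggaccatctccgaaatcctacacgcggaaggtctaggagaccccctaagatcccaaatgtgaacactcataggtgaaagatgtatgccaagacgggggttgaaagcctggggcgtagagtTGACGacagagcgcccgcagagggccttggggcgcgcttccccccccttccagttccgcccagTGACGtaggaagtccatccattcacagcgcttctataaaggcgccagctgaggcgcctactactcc
Jun (chr4:95052223-95052472, strand -): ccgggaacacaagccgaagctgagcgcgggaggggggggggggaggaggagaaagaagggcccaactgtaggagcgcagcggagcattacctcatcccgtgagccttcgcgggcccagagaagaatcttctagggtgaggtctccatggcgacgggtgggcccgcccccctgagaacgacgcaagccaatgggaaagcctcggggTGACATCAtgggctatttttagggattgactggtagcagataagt
Junb (chr8:84978749-84978998, strand -): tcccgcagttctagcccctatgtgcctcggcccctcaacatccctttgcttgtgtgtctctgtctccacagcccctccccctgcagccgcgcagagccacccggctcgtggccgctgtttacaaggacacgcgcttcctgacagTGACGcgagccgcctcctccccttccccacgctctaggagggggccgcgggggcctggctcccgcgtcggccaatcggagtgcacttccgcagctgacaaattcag
Dusp1 (chr17:26508473-26508722, strand -): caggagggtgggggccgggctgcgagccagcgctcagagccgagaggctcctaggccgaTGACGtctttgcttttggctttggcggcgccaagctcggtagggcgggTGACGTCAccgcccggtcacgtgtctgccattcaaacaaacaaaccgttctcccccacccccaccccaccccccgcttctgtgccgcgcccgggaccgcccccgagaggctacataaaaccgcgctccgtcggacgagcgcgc
Zfp36 (chr7:28379229-28379478, strand -): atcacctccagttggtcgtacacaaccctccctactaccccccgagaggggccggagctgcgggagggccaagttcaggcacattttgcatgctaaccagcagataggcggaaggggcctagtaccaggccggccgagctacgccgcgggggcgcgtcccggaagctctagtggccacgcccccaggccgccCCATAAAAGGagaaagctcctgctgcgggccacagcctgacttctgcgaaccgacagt

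Fos had TGACG starting 129 and 66 bases upstream of its start, and Junb had it 106 bases upstream. Dusp1 had TGACG 191 bases upstream and a complete TGACGTCA 143 bases upstream, which TGACG and TGACNTCA both match. Jun had no TGACG but had the TGACNTCA form 45 bases upstream. In all, 5 of the 8 promoters held TGACG (Atf3, Dusp1, Fos, Fosb and Junb), as did 28.0% of the 8414 promoters of genes tested here. TGACNTCA was held by 2 of the 8 and by 5.97% of promoters of genes tested. Zfp36 had neither, and was the 1 promoter of the 8 with the letters of a CArG box, 58 bases upstream, which 1.16% of promoters of genes tested held. The AP-1 site TGANTCA was found in 0 of the 8 windows and in 4.09% of promoters of genes tested. Such matches are letters in a window and no measure of binding.

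Expression was deposited as RPKM (reads per kilobase of gene model, scaled to the mapped reads of the library) with 1 added, and RPKM here is the deposited value minus 1. The depth, estimated from the whole-number steps of low values, was 17.5 and 24.6 M reads (M for mega) in WT replicates 1 and 2 and 6.1 and 21 M reads in JMJD1B-/- replicates 1 and 2. On a transcript of 1 kb, 3 reads equal 0.171, 0.122, 0.491 and 0.143 RPKM in these libraries, and such floors cover counting error only. Kdm3b had 30.98 and 24.3 RPKM in WT HSPCs, against 4.00 and 4.63 RPKM in JMJD1B-/- HSPCs, a log2 fold change of -2.65 (limma, adjusted p = 0.0314). The direction held in all alternatives, and the adjusted p rose above 0.05 with either WT library left out and with 4 other settings. WT replicate 2 stood apart in other ways. It alone had Xist, at 332 RPKM where no other library exceeded 0.0510 RPKM, and it had 0.411 RPKM of the Y-linked gene Ddx3y against 25.5 to 29.3 RPKM elsewhere. By these genes WT replicate 2 had the RNA of a female and the other libraries that of males, though no label gives the sex. Sex thus differed within WT and not between the JMJD1B-/- libraries. The values of WT replicate 2 are therefore given singly below, and results that moved most without it are also given without it.

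In WT HSPCs the 10 genes spanned a wide range of expression. Jun had 97.8 ± 15.5 RPKM (SD, n = 2) and Fos had 96.5 ± 22.1 RPKM (SD, n = 2), above 96.6% and 96.5% of listed genes. These partners of the classical AP-1 dimer did not differ beyond their spread. Jund, the JUN family member that most cells express at rest, followed with 45.2 ± 2.41 RPKM (SD, n = 2). Ier2, a small nuclear protein of the early response, had 38.3 ± 7.56 RPKM, and Fosb had 35.7 ± 16.4 RPKM (SD, n = 2 each). Dusp1 had 35.3 ± 11.2 RPKM, Junb had 24.4 ± 5.76 RPKM and Zfp36 had 20.5 ± 1.38 RPKM (SD, n = 2 each). From Jund to Zfp36, each gene overlapped the next in this order in single WT libraries. Egr1, a zinc finger factor that SRF induces, had 9.14 ± 1.56 RPKM (SD, n = 2), and both values lay below both of Zfp36. Atf3, a stress-induced bZIP factor, was lowest with 1.05 ± 1.21 RPKM (SD, n = 2), above 6.36% of listed genes.

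**Figure D1:**
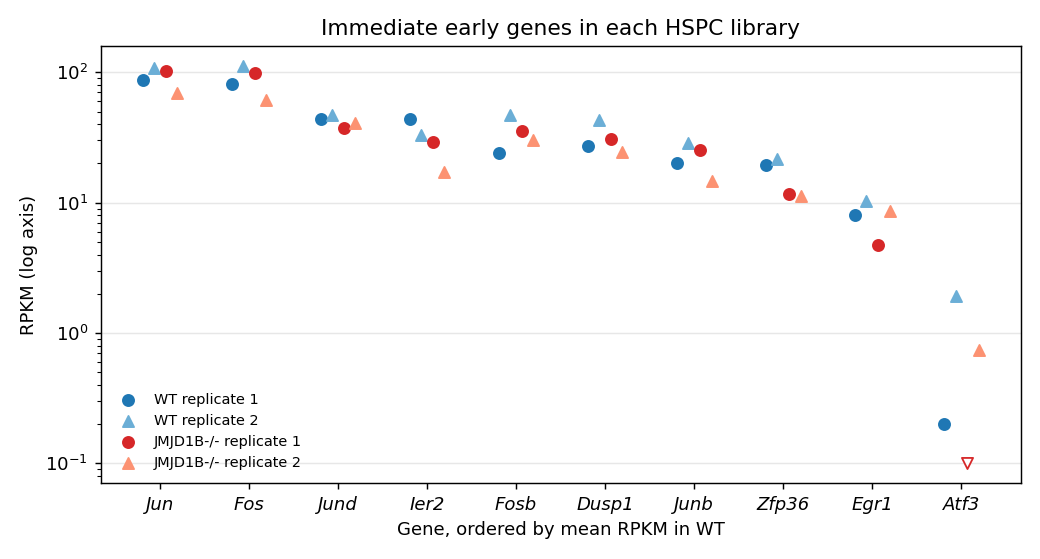
RPKM on a log axis (vertical) of the 10 immediate early genes (horizontal, in order of the WT mean), with 1 point for each of the 2 WT (blue) and 2 JMJD1B-/- (red) libraries and an open triangle at the foot for a value listed at 0. Zfp36, Ier2 and Jund are the genes whose red points both lie below both blue points.

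Between the genotypes, no immediate early gene passed the test after adjustment over all genes, and the point estimates lay on the lower side in JMJD1B-/- HSPCs. Values were compared as log2(RPKM + 0.1) with limma over the 11863 genes whose mean reached 0.5 RPKM, a scale on which the change of low genes is understated. Of the 10 genes, 0 had an adjusted p under 0.05 (lowest 0.258, highest 0.978), where 0.0421% of all genes tested did (0.0337% lower and 0.00843% higher). At an unadjusted p under 0.05, 2 were lower (Zfp36 and Ier2), where 6.33% of genes tested were lower, and 0 were higher, where 3.81% were higher (10.1% in either direction). The log2 fold change was below 0 in all 9 genes other than Atf3, as in 53.0% of all genes tested. That of Atf3 was below 0 as well, but Atf3 is listed only through 1 WT library, which sets its direction. The median was -0.32 with or without Atf3, against -0.02 over all genes tested. Without overlap, the JMJD1B-/- values lay below the WT values in 3 of the 10 genes, where 22.7% of genes tested showed this, and above both in 0, where 20.1% did. Without WT replicate 2 the median was -0.07 and 8 of the 10 were below 0, and without JMJD1B-/- replicate 2 the median was -0.21 and 6 of the 10 were below 0. Without JMJD1B-/- replicate 1 the median was -0.48 and 9 of the 10 were below 0. Without WT replicate 1 the median was -0.55 and all 10 were below 0. The RNA is of bulk HSPCs, in which fewer cells of a type and less RNA per cell cannot be told apart.

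**Figure D2:**
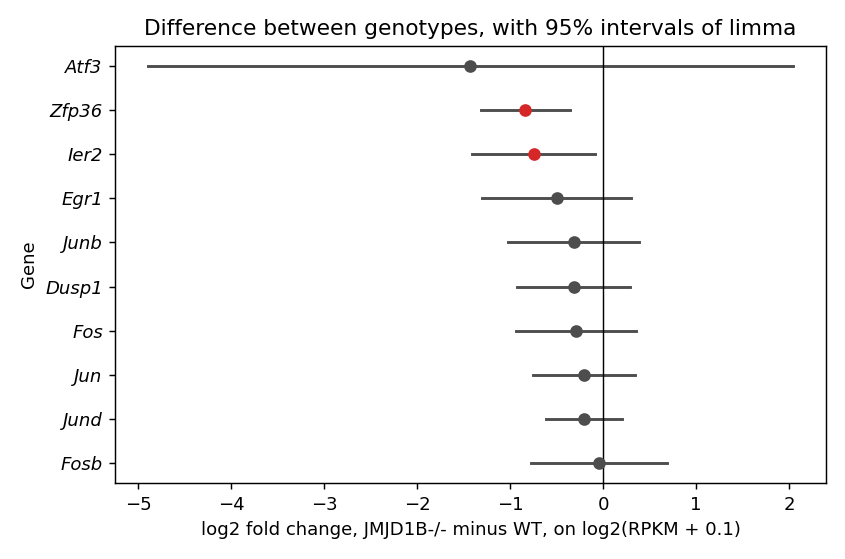
Log2 fold change of JMJD1B-/- against WT (horizontal, on log2(RPKM + 0.1)) of each gene (vertical), with the 95% interval from limma as a line and genes with an unadjusted p under 0.05 in red. Zfp36 and Ier2 have intervals that leave out 0, and the interval of Atf3 runs from -4.90 to 2.04.

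Zfp36 had 19.5 and 21.5 RPKM in WT HSPCs, against 11.5 and 11.3 RPKM in JMJD1B-/- HSPCs. The genotypes did not overlap, and the replicates of each were close together. The JMJD1B-/- mean was 55.7% of the WT mean, with a log2 fold change of -0.84 (standard error 0.20, 95% interval -1.31 to -0.36, limma adjusted p = 0.258). The unadjusted p was 0.00397 in limma. The log2 fold change ranged from -0.91 to -0.77 when single libraries were left out, and the unadjusted p became 0.0583 without WT replicate 2. With JMJD1B-/- replicate 1, which had the fewest reads, left out, the log2 fold change was -0.85.

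Ier2 had 43.6 and 32.9 RPKM in WT HSPCs, against 29.2 and 17.3 RPKM in JMJD1B-/- HSPCs. The genotypes did not overlap, but the gap between WT replicate 2 and JMJD1B-/- replicate 1 was smaller than the gap between the replicates of either genotype. Its log2 fold change was -0.75 (standard error 0.28, 95% interval -1.41 to -0.09, limma adjusted p = 0.449), with an unadjusted p of 0.0318. It was -0.38 without JMJD1B-/- replicate 2, where the unadjusted p was 0.119, and -1.12 without JMJD1B-/- replicate 1, where the adjusted p was 0.0159. Without WT replicate 1 it was -0.55, with an unadjusted p of 0.207.

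The JUN family did not pass the test. Jun had 86.8 and 108.8 RPKM in WT HSPCs, against 101.9 and 69.6 RPKM in JMJD1B-/- HSPCs, so that JMJD1B-/- replicate 1 lay between the WT values and replicate 2 lay below them. For Jun the log2 fold change was -0.21 (95% interval -0.75 to 0.34, limma adjusted p = 0.794), and it was -0.04 without WT replicate 2 and 0.07 without JMJD1B-/- replicate 2. Junb, which can limit the activity of JUN, had 20.3 and 28.5 RPKM in WT HSPCs, against 25.2 and 14.7 RPKM in JMJD1B-/- HSPCs, again with overlap. For Junb the log2 fold change was -0.32 (95% interval -1.02 to 0.39, limma adjusted p = 0.748), and it was -0.08 without WT replicate 2 and 0.07 without JMJD1B-/- replicate 2. Jund was the steadiest of the 10 genes, with 43.5 and 46.9 RPKM against 37.4 and 41.02 RPKM. The JMJD1B-/- values of Jund lay below both WT values by a small margin, and its log2 fold change was -0.21 (95% interval -0.62 to 0.21, limma adjusted p = 0.719).

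The FOS family also overlapped between the genotypes. Fos had 80.9 and 112.1 RPKM in WT HSPCs, against 99.1 and 60.8 RPKM in JMJD1B-/- HSPCs. For Fos the log2 fold change was -0.30 (95% interval -0.94 to 0.35, limma adjusted p = 0.743), and it was -0.06 without WT replicate 2 and 0.06 without JMJD1B-/- replicate 2. Fosb, a paralog of Fos, had 24.1 and 47.3 RPKM in WT HSPCs, and both JMJD1B-/- values, 35.4 and 30.4 RPKM, lay between them. Its log2 fold change of -0.04 was the smallest of the 10 (95% interval -0.77 to 0.69, limma adjusted p = 0.978), and it turned to 0.44 without WT replicate 2. As a level in JMJD1B-/- HSPCs relative to WT, the intervals run from 52.2% to 127.3% for Fos and from 58.5% to 161.1% for Fosb, and levels within these limits are compatible with these libraries.

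Dusp1 had 27.4 and 43.1 RPKM in WT HSPCs, against 30.9 and 24.5 RPKM in JMJD1B-/- HSPCs, with a log2 fold change of -0.32 (95% interval -0.93 to 0.29, limma adjusted p = 0.708). The difference rested on WT replicate 2, without which it was 0.0091. Egr1 had 8.04 and 10.2 RPKM in WT HSPCs, against 4.71 and 8.66 RPKM in JMJD1B-/- HSPCs. The low value of Egr1 was in JMJD1B-/- replicate 1, and the genotypes overlapped. For Egr1 the log2 fold change was -0.50 (95% interval -1.30 to 0.30, limma adjusted p = 0.652). With JMJD1B-/- replicate 1 left out it was -0.07, and with replicate 2 left out it was -0.93, where the unadjusted p was 0.0061 in limma. In WT HSPCs Atf3 had 0.202 and 1.91 RPKM. Among the JMJD1B-/- libraries, replicate 1 listed it at 0 and replicate 2 at 0.737 RPKM. Only WT replicate 2 brought Atf3 over the 1 RPKM that a gene needed in some library to be listed. No fold is read from it, since its log2 fold change was -0.50 with a pseudocount of 1 and -2.88 with 0.01.

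The libraries of 1 genotype differed from each other in a direction that most of these genes shared. Fos, Jun, Junb and Dusp1 had the same order of libraries, with WT replicate 2 highest, then JMJD1B-/- replicate 1, WT replicate 1 and JMJD1B-/- replicate 2, an order that 2.03% of genes tested showed. Apart from Atf3, which is listed only through WT replicate 2, that library held the highest value in 8 of 9 genes, all but Ier2, and 18.4% of genes tested had their highest value there. JMJD1B-/- replicate 2 held the lowest value in 6 of the 10 genes, against 20.3% of genes tested. Between the WT libraries, the median log2 ratio of replicate 2 to replicate 1 was 0.41 over the 10 genes and 0.01 over all genes tested. The limit for listing fixed the direction of this ratio for Atf3. Among the other 9 genes the median ratio was that of Egr1, 0.35. Between the JMJD1B-/- libraries, the median log2 ratio of replicate 1 to replicate 2 was 0.28 over the 10 genes and -0.18 over all genes tested. These orders were looked for after the values had been seen, and libraries of 1 genotype are replicates with no order of their own.

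**Figure D3:**
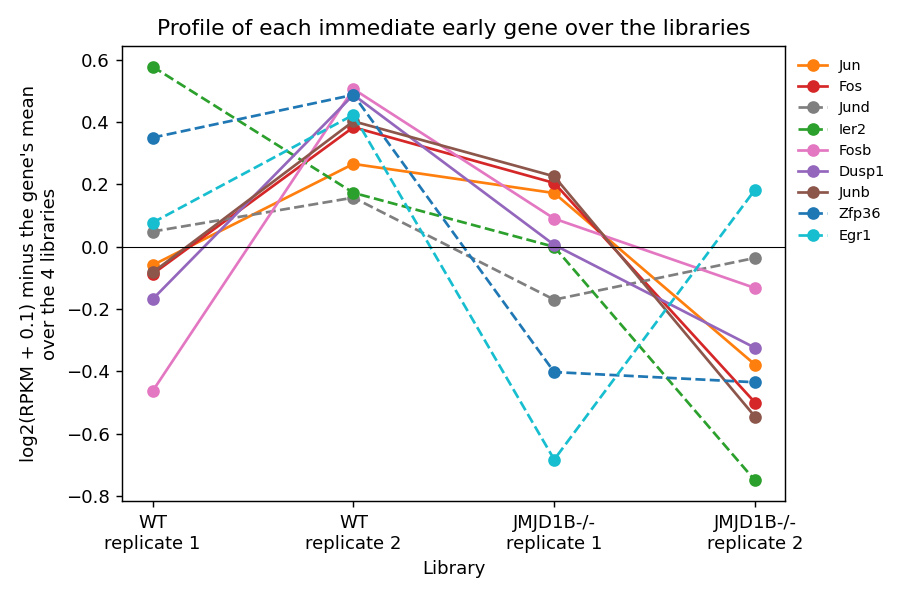
log2(RPKM + 0.1) of each gene minus its mean over the 4 libraries (vertical) in each library (horizontal), without Atf3, with lines that only join the points of 1 gene. Fos, Jun, Junb and Dusp1 run together with their highest value in WT replicate 2 and their lowest in JMJD1B-/- replicate 2, and the dashed lines mark Jund, Ier2, Zfp36 and Egr1, of which the first 3 do not overlap between the genotypes.

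The amount and makeup of AP-1 message were compared library by library. The summed RPKM of Fos, Fosb, Jun, Junb and Jund was 255.7 and 343.6 in the WT libraries and 299.0 and 216.5 in the JMJD1B-/- libraries. Fos and Jun together gave 65.6% and 64.3% of that sum in the WT libraries and 67.2% and 60.2% in the JMJD1B-/- libraries. The ratio of Fos to Jun RPKM was 0.931 and 1.03 in WT and 0.972 and 0.873 in JMJD1B-/- HSPCs. Jund gave 17.02% and 13.7% of the sum in WT and 12.5% and 18.9% in JMJD1B-/- libraries. On each of these measures the spread within a genotype was as large as the difference between the genotypes.

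The genes outside all lists whose profile over the 4 libraries was most like the mean profile of the 9 immediate early genes with a mean of at least 1 RPKM were Mad1l1, 1700109H08Rik, Dnase2a, AI504432, Mlkl, Srgn, Sh3bgrl3 and Atrx. Likeness was the Euclidean distance between centred log2 profiles, and candidates were limited to genes with a mean of at least 5 RPKM. These 8 lay at 0.0817 to 0.111 from the mean profile, against a median of 0.694 over 8196 candidates. Among the immediate early genes themselves, Dusp1 lay nearest (0.236) and Egr1 farthest (0.805). Over 4 libraries such likeness is a description alone.

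The other AP-1 subunits had lower means in WT HSPCs than Fos, Fosb, Jun, Junb and Jund. Of 8 that were looked up, 5 were listed (Fosl2, Batf, Jdp2, Atf2 and Atf7), and 0 of the 5 had an unadjusted p under 0.05. Jdp2, a repressor of AP-1 sites, had 2.45 and 3.82 RPKM in WT HSPCs, against 2.17 and 1.39 RPKM in JMJD1B-/- HSPCs. For Jdp2 the log2 fold change was -0.78 (limma adjusted p = 0.602). Atf2, a CREB-like partner of JUN, was the most expressed of the 5 and had 16.5 and 19.4 RPKM against 16.6 and 16.7 RPKM. Batf had a log2 fold change of -0.38, Atf7 of -0.26 and Fosl2 of -0.19.

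Other early response genes mostly had lower values in JMJD1B-/- HSPCs, though none passed after adjustment. Of 37 genes, 29 were listed and tested, and 28 of these had a log2 fold change below 0, with a median of -0.50. Without overlap, the JMJD1B-/- values lay below the WT values in 16 of the 29 (55.2%, against 22.7% of genes tested) and above both in 0. At an unadjusted p under 0.05, 4 were lower (Ier3, Klf4, Sik1 and Pim1), where 6.33% of genes tested were, 0 were higher, where 3.81% were, and 0 had an adjusted p under 0.05. Ptgs2, Plk2 and Phlda1 exceeded 1 RPKM in WT libraries alone, which fixed their direction. Of the other 26 genes 25 were below 0, with a median of -0.49. Of these 26, 14 had JMJD1B-/- values below the WT values without overlap. Single libraries moved these counts. Without JMJD1B-/- replicate 2, 20 of the 29 were below 0 and 9 were above, with a median of -0.45. Without JMJD1B-/- replicate 1, all 29 were below 0, with a median of -0.81. Without WT replicate 2, 25 of the 29 were below 0, as many as with quantile normalization. The median lay between -0.86 (without WT replicate 1) and -0.30 (without WT replicate 2). Klf2, a quiescence factor of lymphocytes, was the 1 gene above 0, with 6.21 and 11.97 RPKM in WT and 25.7 and 6.12 RPKM in JMJD1B-/- libraries. WT replicate 2 held the highest value in 16 of the 29, where 18.4% of genes tested had theirs. The 16 include Ptgs2 and Phlda1, which exceeded 1 RPKM in that library alone, so that the limit for listing fixed their place.

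Ier3, an early response gene linked to cell survival, had the lowest p of these genes. It had 17.7 and 26.0 RPKM in WT HSPCs, against 7.35 and 4.62 RPKM in JMJD1B-/- HSPCs. The JMJD1B-/- mean was 27.3% of the WT mean, and the log2 fold change was -1.86 (standard error 0.31, limma adjusted p = 0.148). Sik1, a kinase that CREB induces and that restrains CREB coactivators, had 12.4 and 24.1 RPKM against 10.7 and 7.89 RPKM, a log2 fold change of -0.90. Klf4, a zinc finger factor of monocyte differentiation, had a log2 fold change of -1.04, and Pim1, a cytokine-induced kinase, had -0.49. Among genes that did not reach an unadjusted p under 0.05, the log2 fold changes furthest below 0 were those of Ptgs2 (-1.67), Nfil3 (-1.53), Cebpd (-1.12) and Plk2 (-0.99). The NF-kB inhibitors Nfkbia and Tnfaip3, named after their values were seen, were highest in WT replicate 2. Nfkbia had 53.4 RPKM there and 16.7 to 19.3 RPKM in the other 3 libraries, and Tnfaip3 had 35.9 RPKM there, 6.84 RPKM in WT replicate 1 and 18.4 and 8.79 RPKM in the JMJD1B-/- libraries.

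Upstream of these genes, the transcription factors that act on immediate early promoters did not pass the test. Of 14 factors and cofactors (the SRF, ternary complex, CREB, MEF2 and NAB genes), 0 had an unadjusted p under 0.05 and the median log2 fold change was -0.22, or -0.12 without JMJD1B-/- replicate 2. Srf had 9.13 and 10.3 RPKM in WT HSPCs, against 7.63 and 7.88 RPKM in JMJD1B-/- HSPCs, with a log2 fold change of -0.32. The log2 fold changes furthest from 0 were those of Elk3 (-0.59), Nab2 (-0.59) and Mef2c (-0.41). Creb1 had 19.4 and 20.4 RPKM against 19.1 and 21.2 RPKM.

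Of 19 MAP kinase cascade genes, 3 were lower at an unadjusted p under 0.05 (6.33% of genes tested), 0 were higher (3.81%), and the median log2 fold change was -0.00044. Without WT replicate 1, 0 were lower in limma at that level. All 3 encode kinases that MAP kinases activate. Mapkapk2, the p38-activated kinase that phosphorylates the ZFP36 protein, had 44.7 and 39.97 RPKM in WT and 26.8 and 27.5 RPKM in JMJD1B-/- libraries. Its log2 fold change was -0.64 (standard error 0.18, limma adjusted p = 0.335). Rps6ka5 (MSK1), which phosphorylates CREB and histone H3 at immediate early genes, had 14.6 RPKM in both WT libraries, against 9.43 and 9.20 RPKM in JMJD1B-/- HSPCs. Rps6ka1 (RSK1) had 32.4 and 27.9 RPKM against 24.2 and 17.3 RPKM.

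The other MAP kinase phosphatases also had mostly negative log2 fold changes. Of 7 that were listed, 6 had a log2 fold change below 0, with a median of -0.64, and 4 (57.1%, against 22.7% of genes tested) had JMJD1B-/- values below the WT values without overlap. Dusp4 exceeded 1 RPKM in WT libraries alone, which fixed its direction. The median of the other 6 was -0.52, and 3 of these 6 had JMJD1B-/- values below the WT values without overlap. Leaving out JMJD1B-/- replicate 2 gave a median of the 7 of -0.26, and leaving out WT replicate 1 gave -1.13. At an unadjusted p under 0.05, 1 of the 7 was lower, where 6.33% of genes tested were. With an equal-variance test of each gene alone, 0 of the 7 were lower at that level. The 1 gene was Dusp2, a nuclear phosphatase of hematopoietic cells. It had 10.5 and 8.99 RPKM in WT HSPCs, against 3.28 and 4.98 RPKM in JMJD1B-/- HSPCs, a log2 fold change of -1.25 (standard error 0.31, limma adjusted p = 0.265). Dusp4 (-1.78), Dusp5 (-1.08), Dusp10 (-0.64) and Dusp6 (-0.39) did not reach it.

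Among 6 other proteins that bind AU-rich elements, the paralogs of Zfp36 had log2 fold changes on both sides of 0, and the median of the 6 was 0.08. It lay between -0.11 (without WT replicate 1) and 0.24 (without JMJD1B-/- replicate 1) with single libraries left out. Zfp36l2, a paralog with a known role in HSPC maintenance, had 180.9 and 232.5 RPKM in WT HSPCs, against 111.0 and 148.4 RPKM in JMJD1B-/- HSPCs. Its log2 fold change was -0.68 (standard error 0.22, limma adjusted p = 0.403), with an unadjusted p of 0.0173. None of the 6 was lower in limma at an unadjusted p under 0.05 without JMJD1B-/- replicate 1 or without WT replicate 2. Zfp36l1 had 9.35 and 16.2 RPKM against 13.1 and 17.4 RPKM, a log2 fold change of 0.29 (95% interval -0.42 to 1.013). Elavl1 and Khsrp had log2 fold changes of 0.40 and 0.41.

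Genes described as AP-1 targets went both ways. Of 10 that were listed out of 16, 3 were lower (Il6, Spp1 and Plaur) and 2 were higher (Cd44 and Nqo1) at an unadjusted p under 0.05, where 6.33% of genes tested were lower and 3.81% higher, and 0 passed after adjustment. With either WT library left out, 0 were higher in limma at that level. Il6 and Spp1 exceeded 1 RPKM in WT libraries alone, so that the limit for listing fixed their direction, and the median of the other 8 was -0.10. Il6, a cytokine whose message also carries AU-rich elements, had 5.79 and 9.68 RPKM in WT and 0.729 and 0.784 RPKM in JMJD1B-/- libraries. For Il6 the log2 fold change was -3.15 (standard error 0.43, limma adjusted p = 0.0768). Cd44, an adhesion receptor, had 26.6 and 30.3 RPKM against 46.5 and 37.2 RPKM. The median of the 10 genes was -0.50. It turned to 0.40 without JMJD1B-/- replicate 2 and was -1.33 without JMJD1B-/- replicate 1.

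Heat shock genes, which handling of tissue can induce together with immediate early genes, lay on the other side. All 9 that were listed had a log2 fold change above 0, also under both other scalings tried. Hspa1a and Hspa1b, near-identical copies that can share reads, exceeded 1 RPKM in JMJD1B-/- libraries alone, which fixed their direction. The median was 0.43 over the other 7 and 0.80 over all 9, or 0.52 over all 9 with quantile normalization. Without overlap, the JMJD1B-/- values lay above the WT values in 6 of the 7, where 20.1% of genes tested showed this. At an unadjusted p under 0.05, 3 of the 7 were higher (Hspa8, Hsph1 and Hspe1), where 3.81% of genes tested were, and 0 passed after adjustment. Hspa8, a constitutive chaperone, had 603.7 and 790.7 RPKM in WT HSPCs, against 1227.3 and 1396.9 RPKM in JMJD1B-/- HSPCs, a log2 fold change of 0.92 (standard error 0.24, limma adjusted p = 0.304). Hspa1b had 0.305 and 0.473 RPKM in WT HSPCs, against 1.81 and 2.42 RPKM in JMJD1B-/- HSPCs.

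**Figure D4:**
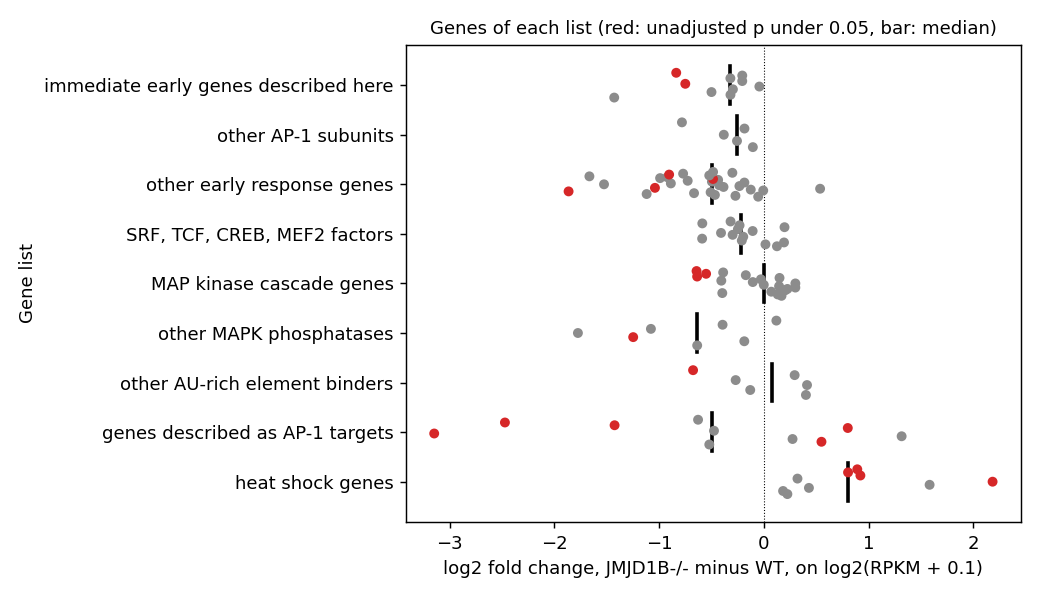
Log2 fold change of JMJD1B-/- against WT (horizontal, on log2(RPKM + 0.1)) of each gene of 9 lists (vertical), with the median of a list as a bar and genes with an unadjusted p under 0.05 in red. The median lies at -0.50 for other early response genes and at 0.80 for heat shock genes, or 0.43 without Hspa1a and Hspa1b.

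Markers of several cell types also differed between the genotypes. All 12 stem and progenitor markers looked up were listed, at levels that ranged from 51.6 to 92.7 RPKM for Kit down to 0.629 to 2.96 RPKM for Ly6a and 0.180 to 1.47 RPKM for Procr. The log2 fold change was above 0 for Kit and below 0 for the other 11, where 53.0% of genes tested were below 0. Procr exceeded 1 RPKM in WT libraries alone, which fixed its direction, and 10 of the 11 besides Procr were below 0. The median of the 12 was -0.71, or -0.60 without WT replicate 1 and -0.92 without WT replicate 2. Without JMJD1B-/- replicate 1, 9 of the 12 were below 0. At an unadjusted p under 0.05, 5 of the 12 were lower (Cd34, Gata2, Flt3, Mecom and Meis1), where 6.33% of genes tested were lower and 3.81% higher. The counts of the lists that follow stand beside the same shares. Of 11 granulocyte markers tested, 7 were lower and 3 were higher at that level, and the list summed to 308.4 and 209.2 RPKM in WT and to 138.8 and 64.7 RPKM in JMJD1B-/- libraries. Of 9 basophil, eosinophil and mast cell markers, 6 were lower and 1 was higher, and the sum, most of it Prg2, was 6073 and 1627 RPKM in WT and 4594 and 1219 RPKM in JMJD1B-/- libraries. Of 8 erythroid markers, 7 were higher, and the sum was 233.6 and 342.8 RPKM in WT and 585.1 and 1162 RPKM in JMJD1B-/- libraries. Of 6 monocyte markers listed, 2 were lower, with sums of 88.8 and 85.9 RPKM in WT and 85.4 and 20.2 RPKM in JMJD1B-/- libraries, and of the 6 T and NK cell markers over 1 RPKM in both genotypes 1 was lower and 1 was higher, with list sums of 25.2 and 31.1 RPKM against 58.2 and 15.0 RPKM. After adjustment Prtn3 (limma adjusted p = 0.04998) and Prss34 (0.00637) passed, and neither did with either WT library left out or with median-ratio scaling or quantile normalization. The median log2 fold change of the 6 monocyte markers was -0.87, against -1.51 without JMJD1B-/- replicate 1 and 0.05 without JMJD1B-/- replicate 2. That of the 11 granulocyte markers was -1.72, and lay between -2.03 and -1.23 with single libraries left out. For B cells, Cd79b alone was listed, at 0.631 to 3.28 RPKM. The part of what these markers show in the values of Zfp36, Ier2, Ier3 and Il6 was not tested.

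Markers of stroma were highest in the library in which most of the immediate early genes were highest. Of 6 that were listed, 5 had their highest value in WT replicate 2, where 18.4% of genes tested had theirs. Lepr, 1 of the 5, exceeded 1 RPKM in that library alone, so that the limit for listing fixed its place. The list summed to 40.0 and 69.3 RPKM in WT HSPCs, against 24.3 and 11.0 RPKM in JMJD1B-/- HSPCs. Col1a1, a collagen of fibroblasts and bone, had 15.7 RPKM in WT replicate 2 and 1.00 to 2.13 RPKM in the other libraries. Cxcl12, a niche chemokine of marrow stroma, had 5.92 RPKM there and at most 1.26 RPKM elsewhere. The endothelial markers Pecam1 and Kdr were nearly level between the WT libraries, with 33.97 and 33.90 RPKM of Pecam1 and 1.78 and 1.89 RPKM of Kdr in the WT libraries, and the defining marker Cdh5 was not listed. Col1a2 and Lepr exceeded 1 RPKM in WT libraries alone, which fixed their direction. The other 4 had log2 fold changes below 0, with Pecam1 lower at an unadjusted p under 0.05. Of all 6, 3 were below 0 without WT replicate 2. The part of such cells, or of the other traits of WT replicate 2, in the high values of Fos, Fosb, Jun, Junb and Dusp1 in that library was not tested.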

How the data were processed

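Polyadenylated RNA of HSPCs was sequenced from TruSeq libraries, 2 per genotype. The authors deposited RPKM per gene and library with 1 added to each value. The submitters' processing notes name TopHat2, Novoalign and mm9 without saying which step used them, and the counting program and annotation are not given in the sources used here. The lowest deposited value is 1 and no gene has its highest value under 2, so a gene that never reached 1 RPKM is not analysed here. For 42 names with several entries, entries were averaged. Relative depth was estimated from ratios of low values (for JMJD1B-/- replicate 1 the first estimate gave even reads in 43 genes and odd reads in 6 and was divided by 2), and absolute depth from 15 genes whose RefSeq span gave the same depth, the next most frequent depth having 3. Genes were fitted with limma 3.58.1 in R 4.3.3 (trend, no block, two-sided, Benjamini-Hochberg adjustment), and the fit was tested on simulated data. With 2 libraries against 2, an exact permutation test cannot give a p under 0.333. Python 3.11.15, pandas 2.3.3, numpy 2.4.6 and matplotlib 3.10.9 were used.

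The 10 genes and the lists were chosen with earlier results of these data known. Named beside them were, in each list, genes with an unadjusted p under 0.05 or at most 4 with the largest fold change, and 8 genes of similar profile; other names were added after their values were seen, to describe a list. Alternatives were pseudocounts of 1 and 0.01, no filter, a mean of at least 1 RPKM, median-ratio scaling, quantile normalization, limma without a trend, an equal-variance test of each gene alone, a replicate block, leaving out each library and, added after the data were seen, lists of genes over 1 RPKM in both genotypes. ChIP-seq samples were not used here.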

Additional observations from a re-analysis of the deposited data

How the results depend on the processing

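The median log2 fold change of the 10 immediate early genes was below 0 under every alternative tried. It lay between -0.55 and -0.070 with each library left out, lowest without WT replicate 1 and nearest to 0 without WT replicate 2. Of 129 values recomputed for single genes over 13 alternatives, 120 kept their direction and stayed on the same side of an adjusted p of 0.05, and 7 changed sign. The log2 fold change of Fos lay between -0.65 and 0.057 with each library left out, that of Jun between -0.48 and 0.069, that of Junb between -0.70 and 0.066, that of Fosb between -0.53 and 0.44, that of Dusp1 between -0.65 and 0.0091, that of Egr1 between -0.93 and -0.067 and that of Atf3 between -2.96 and 0.10. Atf3 had no value with a mean of at least 1 RPKM, which it did not reach. The gene-by-gene test, limma without a trend, median-ratio scaling and quantile normalization each left 1 immediate early gene, Zfp36, lower at an unadjusted p under 0.05, and leaving out each library left 1 to 5, with 0 to 2 past adjustment. Without 1 library the lone library of its genotype is assumed to vary like the others, and the number of genes at an adjusted p under 0.05 lay between 0 and 669, that of lower genes at an unadjusted p between 177 and 1819 and that of higher genes between 123 and 1258.

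The number of genes at an adjusted p under 0.05 was 5, against 0 with the gene-by-gene test and with limma without a trend (at an unadjusted p under 0.05, 512 and 768 were lower and 348 and 346 higher), 1 with either median-ratio scaling or quantile normalization, 3 with a mean of at least 1 RPKM and with a pseudocount of 0.01, and 18 with a pseudocount of 1. For Kdm3b the adjusted p rose above 0.05 with the gene-by-gene test and limma without a trend (log2 fold change -2.65 in both), after median-ratio scaling (-2.63) and after quantile normalization (-2.59), and without WT replicate 1 or 2 (adjusted p 0.796 and 0.619), and its log2 fold change lay between -2.82 and -2.47 with each library left out. The share of lower genes moved with scaling, from 751 lower and 452 higher to 747 and 632 with median-ratio scaling and 712 and 673 with quantile normalization. With the replicate block 256 genes had an adjusted p under 0.05, and Zfp36 and Ier2 had 0.0674 and 0.0514. Of the 29 other early response genes, 9 were then lower at an unadjusted p under 0.05 and 1 passed adjustment. The labels tie equal numbers to no shared litter or day, and the deviations of equally numbered libraries had a correlation of -0.0543 over genes, so the numbers were not taken to pair the samples. The cause of these shifts was not tested.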
